A study of Mus musculus with 5 samples.

Results

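The MHC class II genes followed here are the 9 genes H2-Aa, H2-Ab1, H2-Eb1, H2-DMa, H2-DMb1, H2-DMb2, H2-Oa, Cd74 and Ciita. They were chosen by name and found by gene symbol among the 32285 genes counted in each tumor-draining lymph node (TDLN) library and the 33696 genes counted in each MC38 tumor library, where all 9 were present. MHC class II molecules display peptides from ingested proteins to CD4+ T cells. H2-Aa and H2-Ab1 encode the alpha and beta chains of I-A, and H2-Eb1 encodes the beta chain of I-E, whose alpha chain is missing in C57BL/6 mice. Cd74 is the invariant chain, which fills the peptide groove and guides new class II molecules to the endosome. H2-DMa pairs with H2-DMb1 or H2-DMb2 to form H2-DM, which removes the last fragment of the invariant chain and edits the bound peptides, and H2-Oa encodes the alpha chain of H2-O, an inhibitor of H2-DM. Ciita is the transactivator that switches these genes on, constitutively in dendritic cells and B cells and, in macrophages and many other cells, in response to IFN-γ through the kinases JAK1 and JAK2.

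The study asked how a JAK1 inhibitor, ABT-317, given after immune checkpoint inhibition (CPI, anti-CTLA4 with anti-PD-1) changes immune responses against tumors. Male wild-type C57BL/6J mice aged 8 to 10 weeks received 1000000 TRAMP-C2 prostate tumor cells or MC38 colorectal tumor cells under the skin, were given isotype antibody or CPI on days 3, 6 and 9, then vehicle (DPBS) or ABT-317 at 20 mg/kg on day 12, and were sampled on day 15. Mice with MC38 tumors entered treatment only after a minimal tumor size had been reached. The study's figure legend counts the days of these mice from that entry, whereas its sequencing methods count them from implantation. The libraries were 3 reactions of unsorted TDLN cells of the TRAMP-C2 mice and 2 reactions of MC38 tumors, in which sorted CD45+ and CD45- cells had been mixed in equal parts, all made with the 10x Genomics 5′ chemistry, which counts each captured RNA molecule as a unique molecular identifier (UMI). In the MC38 libraries 4 hashtag antibodies per reaction marked the treatment of a cell as isotype, CPI, CPI + ABT-317 or isotype + ABT-317. The hashtag key names treatments and no mice, so the 2 reactions are the replicates here, and whether they hold different mice is not given in the sources used here. In the TDLN libraries every antibody and hashtag count was 0, so no TDLN cell could be placed in a treatment and the TDLN values are for all treatments together.

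The libraries held 62575, 56511 and 7050 barcodes for TDLN and 37774 and 27582 for MC38 tumors, with a median of 1713 to 1905 UMIs per barcode in TDLN and of 6785 and 7079 in the tumors. Pairs of libraries shared 271 to 4842 barcodes, and the 2 tumor libraries shared 1416, which is 5.13% of the smaller. Cell classes were ranges of summed marker level per barcode, named for the markers that define them, and no class II gene was a marker. In the tumors 7152 and 6522 barcodes met the macrophage-like gate (C1qa, C1qb, C1qc, Mrc1, Adgre1, Ms4a7 and Pf4), with 556 and 338 of them within 1.25 times of the cutoff and a further 740 and 561 just under it. A class without any marker gate or any UMI of the leukocyte gene Ptprc held 19380 and 12593 barcodes and was left unnamed. No doublet caller was run, and 416 and 345 barcodes that met more than 1 gate were set aside. In the TDLN libraries 97.5% to 98.9% of barcodes fell in no class, and a Cd74 UMI was present in 96.6% to 98.7% of all barcodes (median 1713 to 1905 UMIs), compared with 34.7% and 43.3% of T cell-like barcodes of reactions 1 and 2 (median 6109 and 6564 UMIs).

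Of the 9 genes, 7 lie in the MHC region of chromosome 17, and the promoters of 4 of these hold a pair of sequence elements known from class II promoters. In GRCm38 coordinates of the GENCODE vM21 annotation, H2-Oa spans chr17:34092340-34095234, H2-DMa chr17:34119541-34139101, H2-DMb2 chr17:34143307-34151555, H2-DMb1 chr17:34153072-34160230, H2-Ab1 chr17:34257689-34269419, H2-Aa chr17:34282744-34287823 and H2-Eb1 chr17:34305867-34316674. All are on the plus strand except H2-Aa, and Ciita lies apart at chr16:10480059-10528418 on the plus strand. The known class II promoter carries an X2 box (core TGANG) followed by a Y box (ATTGG, bound by NF-Y), and CIITA is recruited to the factors bound there without touching DNA itself. RefSeq promoters of GRCm38.p6, which run from 250 bases before to 50 bases after a start site, were at hand for 6 of the genes, and in 4 of them TGANG was followed by ATTGG with 24 to 29 bases from the first base of one to the first base of the other, a window set after these promoters had been read. The stretches are shown 5′ to 3′ on the strand of each gene because they carry what these genes share, with both elements in capitals and 6 flanking bases on each side.
H2-DMb2: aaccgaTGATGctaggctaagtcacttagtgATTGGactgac
H2-DMb1: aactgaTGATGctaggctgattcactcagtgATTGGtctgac
H2-Aa: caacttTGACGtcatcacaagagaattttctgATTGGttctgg
H2-Eb1: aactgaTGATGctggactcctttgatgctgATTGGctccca

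These stretches lie at chr17:34145128-34145169 (H2-DMb2), chr17:34153099-34153140 (H2-DMb1), chr17:34287861-34287903 (H2-Aa, minus strand) and chr17:34305778-34305818 (H2-Eb1). The first base of ATTGG was 90, 61, 48 and 59 bases before the start site, in that order, and the spacing was 25, 25, 26 and 24 bases. The pair at this spacing occurred in 541 of 32851 promoters of the same length (1.65%), whereas ATTGG alone on either strand occurred in 37.4% and TGANG alone in 89.4%. Neither start of H2-DMa nor that of H2-Oa held the pair at this spacing within the window. The stretches of H2-DMb1 and H2-DMb2, which are neighbouring paralogs, look much alike, and reads from the 2 genes may have been split between them by the counting.

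Among the MC38 tumor classes with 9 or more barcodes in both reactions, the summed class II level was highest in the 3 dendritic cell classes, and the macrophage-like class, which was lower per UMI, held most of their RNA because of its size. Macrophage-like barcodes were 21.2% and 28.0% of barcodes and 8.13% and 10.4% of all gene UMIs in the 2 reactions, and they held 58.4% and 69.5% of all UMIs of the 9 genes. Barcodes in no class but with a Ptprc UMI held a further 17.4% and 12.5%, and the unnamed class held 17.9% and 11.7%. Levels are given below as counts per 1000000 UMIs of the class (CPM), reaction 1 first, and they were not tested between classes, which share the same 2 reactions. Intervals in the plot of levels by class cover counting error only. The summed level of the 9 genes was 51025 and 63440 CPM in the cDC2-like class (26 and 19 barcodes), 39010 and 64400 CPM in the cDC1-like class (12 and 9 barcodes), 17849 and 18334 CPM in the class with markers of mature regulatory dendritic cells (mregDC-like, 22 and 18 barcodes) and 11116 and 13697 CPM in the macrophage-like class (mean 12407 ± 1825, SD, n = 2). It was 379 and 320 CPM in the unnamed class (349 ± 41.8, SD, n = 2). The 3 dendritic cell classes rest on 9 to 26 barcodes each, which limits how well their levels are known.

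**Figure D1:**
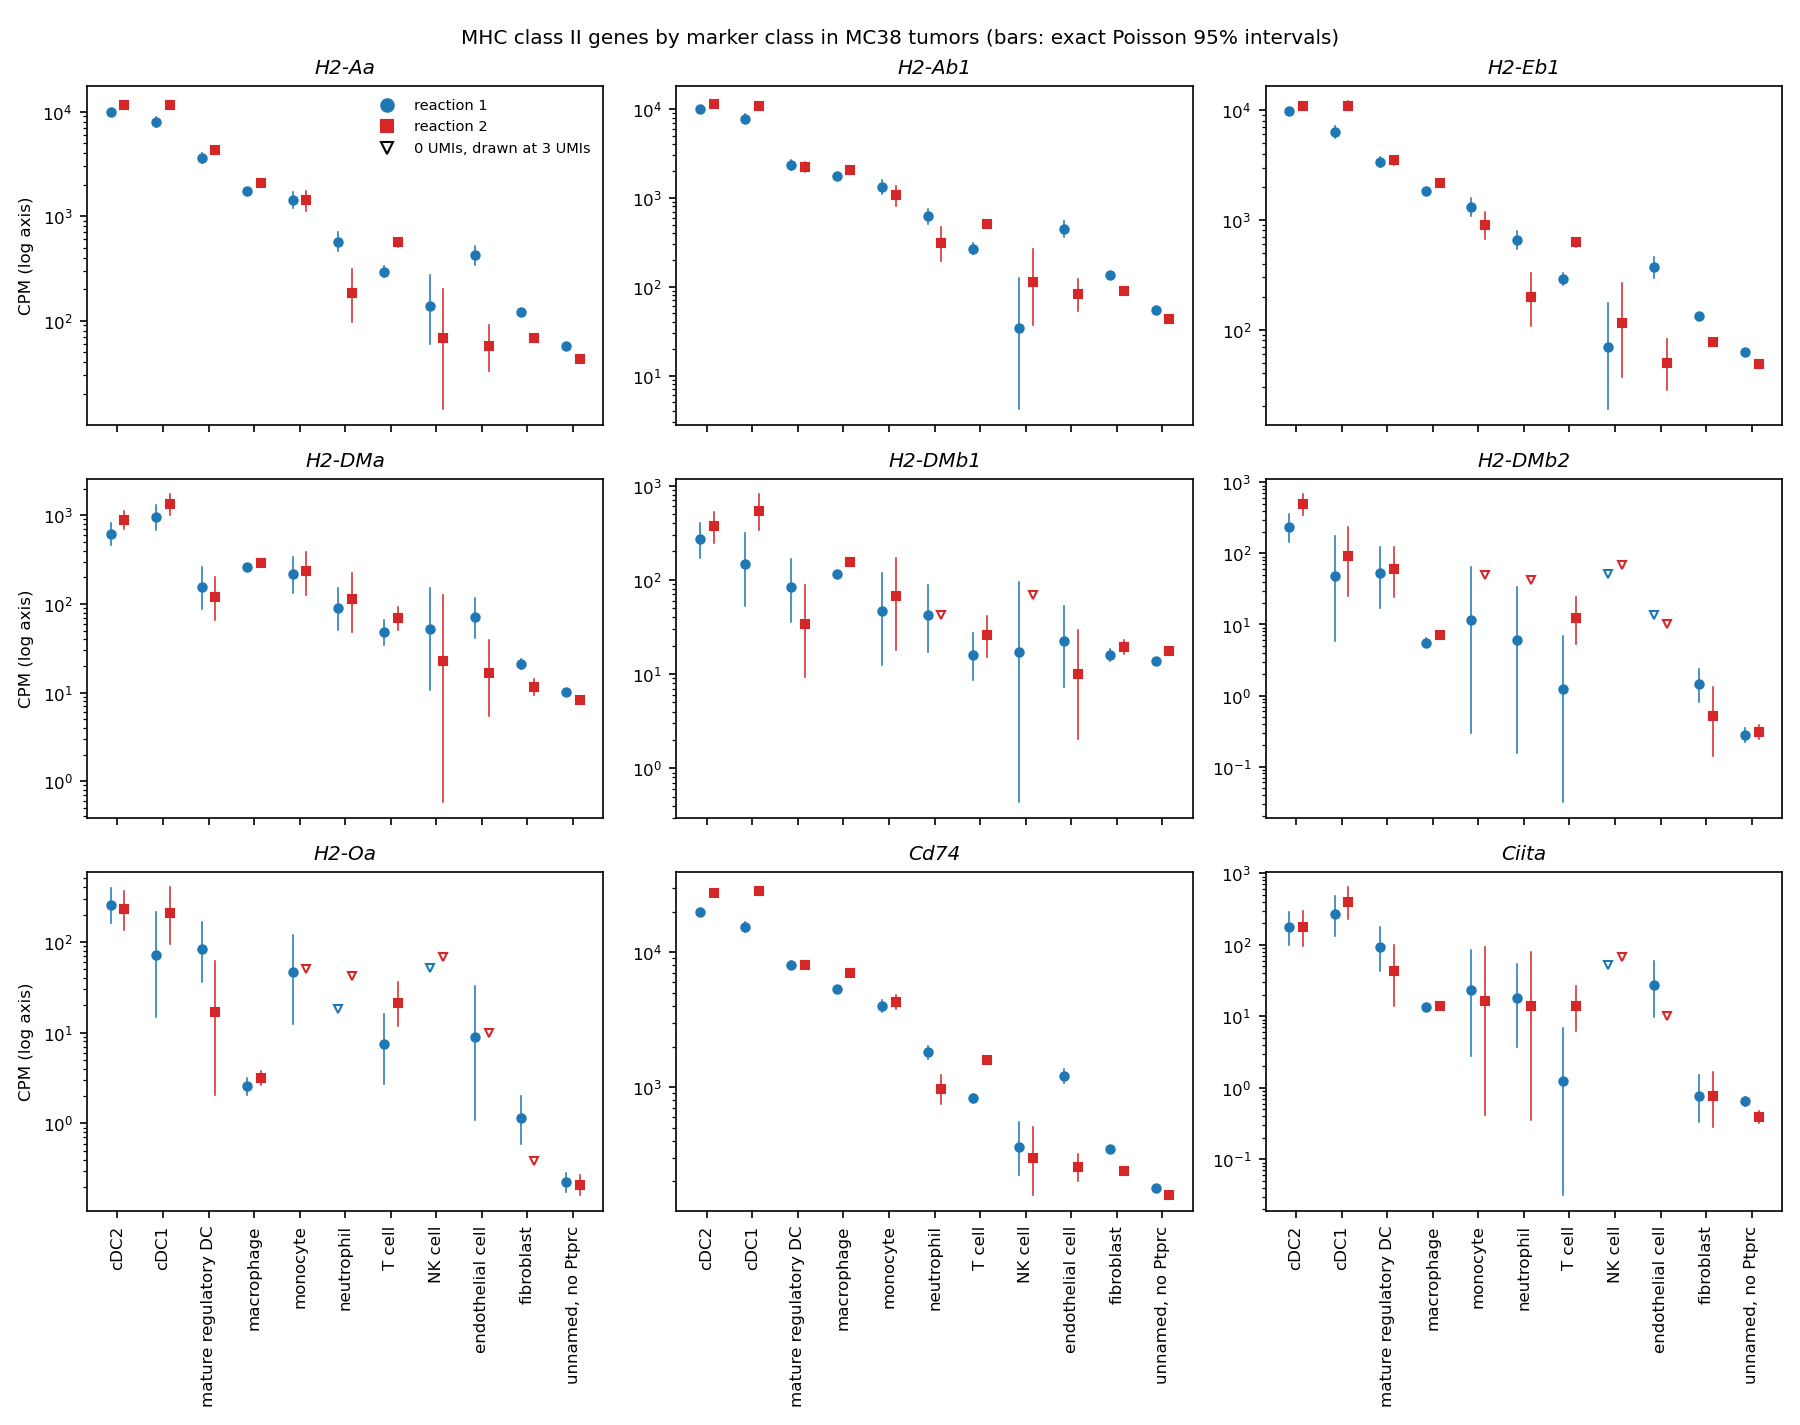
Level of each of the 9 genes (panels) in MC38 tumors, in counts per 1000000 UMIs on a log axis, for 11 cell classes and 2 reactions (points), with exact Poisson 95% intervals and open triangles where no UMI was counted, drawn at the level of 3 UMIs. The dendritic cell classes sit highest for the classical chains, and H2-DMb2, H2-Oa and Ciita fall further between cDC2-like and macrophage-like barcodes than the other genes do.

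The classical chains H2-Aa, H2-Ab1 and H2-Eb1 moved together between the cDC2-like and macrophage-like classes. H2-Aa stood at 9949.9 and 11692 CPM in cDC2-like barcodes and at 1749 and 2066 CPM in macrophage-like barcodes, a ratio of 5.69 and 5.66. The same ratio was 5.67 and 5.61 for H2-Ab1 and 5.38 and 5.08 for H2-Eb1. In cDC1-like barcodes H2-Aa was at 8034 and 11495 CPM, 4.59 and 5.56 times the macrophage-like level. At least 1 UMI of the 3 chains was found in 88.9% and 88.0% of macrophage-like barcodes, and in 61.9% and 62.8% after each barcode had been thinned to 500 UMIs.

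Cd74, the invariant chain, had a smaller step between the same classes. It was at 19736 and 27272 CPM in cDC2-like barcodes and 5381 and 6981 CPM in macrophage-like barcodes, a ratio of 3.67 and 3.91, against the ratios over 5 of the classical chains. In the monocyte-like class (20 and 22 barcodes) Cd74 was at 4001 and 4287 CPM, below both macrophage-like values.

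The peptide editor and its inhibitor separated the classes in another way. H2-DMa was 2.35 and 3.08 times and H2-DMb1 2.36 and 2.37 times as high in cDC2-like as in macrophage-like barcodes, whereas H2-DMb2 was 42.2 and 70.2 times and H2-Oa 100 and 72.2 times as high. H2-Oa, the alpha chain of the inhibitor, was at 258 and 229 CPM in cDC2-like barcodes and at 2.57 and 3.17 CPM in macrophage-like barcodes (89 and 122 UMIs in all). Its partner chain H2-Ob was also higher, at 46.8 and 76.2 CPM against 5.69 and 6.18 CPM. That step was smaller than the step of H2-Oa and rests on few UMIs in cDC2-like barcodes. Macrophage-like barcodes thus held nearly all of their H2-DM beta chain RNA as H2-DMb1, with 192 UMIs of H2-DMb2 to 3951 of H2-DMb1 in reaction 1 (0.0486) and 272 to 5997 in reaction 2 (0.0454). In cDC2-like barcodes the same UMI ratio was 0.870 and 1.34, and over all TDLN barcodes it was 3.05, 3.00 and 3.24. The 2 paralogs have nearly the same sequence, so these ratios are of UMIs as the authors' counting assigned them.

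Ciita, the transactivator, was scarce everywhere and followed the dendritic cell classes. It was at 176 and 178 CPM in cDC2-like barcodes and at 266 and 396 CPM in cDC1-like barcodes, against 13.5 and 14.1 CPM in macrophage-like barcodes. The cDC2-like level was 13.0 and 12.6 times and the cDC1-like level 19.7 and 28.1 times the macrophage-like level, steps larger than those of the classical chains. Both dendritic cell levels rest on few Ciita UMIs. In the unnamed class it was at 0.650 and 0.392 CPM.

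The mregDC-like class, named for Ccr7, Fscn1, Ccl22, Il4i1, Cacnb3 and Apol7c, had less class II RNA than the cDC2-like class and more class II protein at its surface. Its classical chains were 31.4% and 29.5% of the cDC2-like level, its Cd74 was 40.8% and 29.5%, and its H2-DMa, at 157 and 120 CPM, was 0.593 and 0.414 times the macrophage-like level. Surface protein was read with an antibody to I-A/I-E in a panel of 122 antibodies, 9 of them isotype controls, and is given as its UMIs over the mean of the isotype controls. The I-A/I-E antibody stood at 44.1 and 62.2 in mregDC-like barcodes, at 15.9 and 13.8 in cDC2-like, at 9.85 and 6.36 in cDC1-like and at 4.79 and 5.30 in macrophage-like barcodes. The median barcode held 549 and 636.5 UMIs of this antibody in mregDC-like and 102.5 and 85 in cDC2-like barcodes, at median antibody totals of 5121 to 6569 UMIs. The mregDC-like values were thus the highest of these 4 classes in both reactions, while their class II RNA was below that of both conventional dendritic cell classes. March1, a ubiquitin ligase that removes class II from the surface, had 2 and 0 UMIs in mregDC-like and 4 and 3 UMIs in cDC2-like barcodes, too few to compare. Cd83, which opposes that ligase, was at 543 and 342 CPM in mregDC-like and 410 and 572 CPM in cDC2-like barcodes, with no common direction in the 2 reactions.

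In the unnamed, fibroblast-like and T cell-like classes class II RNA was lower than in the macrophage-like class, and RNA of macrophage genes was present too. The B cell-like class of the tumors, with 4 and 6 barcodes, had a summed level of 15525 and 12217 CPM. In the unnamed class H2-Aa was 3.28% and 2.08% of its macrophage-like level, H2-Ab1 3.12% and 2.11%, H2-Eb1 3.38% and 2.24% and Cd74 3.34% and 2.28%. C1qa, a complement gene of macrophages and one of the markers of the gate, was at 2.48% and 1.58% there, Apoe at 2.52% and 1.63% and Lyz2 at 2.98% and 2.05%. The shares of the other members there were 11.9% and 11.2% for H2-DMb1, 8.76% and 6.69% for H2-Oa, 5.05% and 4.37% for H2-DMb2, 4.81% and 2.77% for Ciita and 3.87% and 2.84% for H2-DMa, of which H2-Oa, H2-DMb2 and Ciita were under 1 CPM in the unnamed class. At 500 UMIs a barcode, 12.7% and 10.9% of unnamed barcodes (median 13968 and 21140 UMIs before thinning) had a UMI of a classical chain, compared with 58.9% and 44.4% before thinning.

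Fibroblast-like barcodes (1718 and 1108) had H2-Aa at 6.98% and 3.26% of the macrophage-like level, beside C1qa at 3.60% and 2.30%. T cell-like barcodes of the tumors (450 and 410) had H2-Aa at 16.9% and 27.3% and Cd74 at 15.4% and 22.8%, beside Lyz2 at 17.7% and 14.2% and C1qa at 6.60% and 4.77%, and their thinned share with a classical chain was 21.9% and 17.4%. Mouse T cells are not known to transcribe class II genes to any extent, so the T cell-like values are given as those of a class that should lack these genes. Surface I-A/I-E was 1.56 and 1.80 times the isotype controls in T cell-like barcodes, 1.42 and 1.43 in fibroblast-like and 1.74 and 1.62 in unnamed barcodes. The endothelial-like class (65 and 62 barcodes) differed between reactions, with H2-Aa at 423 and 56.6 CPM. The class levels include barcodes with more than 1 hashtag. T cell-like barcodes with more than 1 hashtag (128 and 63) had H2-Aa at 397 and 1304 CPM. Those with the CPI hashtag alone had 200 and 230 CPM. Fibroblast-like barcodes with more than 1 hashtag (684 and 274) had H2-Aa at 160 and 108 CPM, and those with CPI alone 70.2 and 38.9 CPM. The part of free RNA and of barcodes with more than 1 hashtag in these low values was not tested.

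In the TDLN, class II RNA was higher in the small B cell-like class than over all barcodes and than in the T cell-like class. A cDC1-like barcode of reaction 1 had a summed level of 49512 CPM and 2 cDC2-like barcodes of reaction 2 had 41396 CPM, above the B cell-like values. Only barcodes whose B or T cell markers departed strongly from the pool could be placed, 92, 195 and 2 as B cell-like and 101, 90 and 6 as T cell-like in reactions 1, 2 and 3. The gate of each of these classes also asked for few markers of the other class, at 0.1 of the pool. T cell-like barcodes were thus chosen for little B cell RNA, and the order of the classes is not independent of the gate. B cell-like barcodes had Cd74 at 19574, 17129.7 and 17297 CPM and H2-Aa at 5169, 4380.03 and 4123 CPM. Their summed level of the 9 genes was 33737, 29537 and 28769 CPM, with a mean of 31637 over reactions 1 and 2, the 2 with over 2 such barcodes. T cell-like barcodes had Cd74 at 283 and 258 CPM in reactions 1 and 2, 1.45% and 1.51% of the B cell-like level, and 6 such barcodes in reaction 3 had 1869 CPM. Over all TDLN barcodes Cd74 was at 7303, 5670.12 and 6837 CPM, between the 2 classes, and the plasma cell-like class (1361, 635 and 69 barcodes) had 96.7%, 97.4% and 92.5% of that, so this class did not stand apart from the pool in Cd74.

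**Figure D2:**
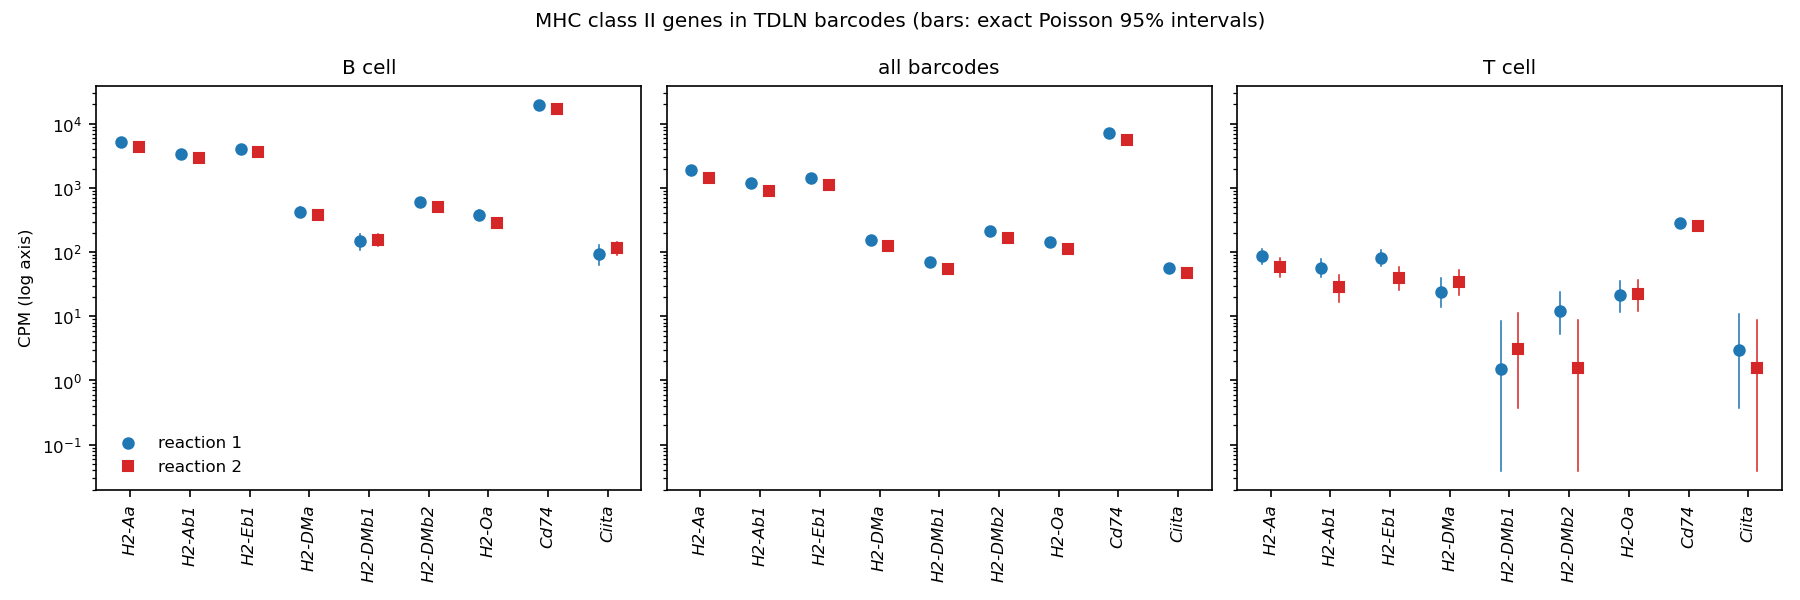
Level of the 9 genes in TDLN reactions 1 and 2, in counts per 1000000 UMIs on a log axis, for B cell-like barcodes, all barcodes and T cell-like barcodes. All 9 genes are ordered B cell-like, all barcodes, T cell-like in both reactions, with Cd74 at 19574 and 17129.7 CPM in B cell-like and 283 and 258 CPM in T cell-like barcodes. The gate of each class asked for few markers of the other, so this order is not independent of the gate.

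The editors took a B cell pattern in the nodes. H2-DMb2 was at 600.2 and 496 CPM and H2-DMb1 at 147 and 155 CPM in B cell-like barcodes of reactions 1 and 2, a UMI ratio of 4.08 and 3.20, the reverse of the tumor macrophage-like class. H2-Oa was at 377 and 284 CPM and H2-Ob at 594 and 488 CPM. H2-Oa in T cell-like barcodes, at 21.2 and 21.9 CPM, was 5.62% and 7.72% of the B cell-like level, a larger share than the 1.67% and 1.32% of H2-Aa. Ciita was at 91.9 and 115 CPM in B cell-like and 3.02 and 1.56 CPM in T cell-like barcodes.

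Treatments were compared in macrophage-like barcodes of MC38 tumors, whose UMIs were summed by hashtag and reaction. The sums held 3875 and 3894 barcodes for isotype, 154 and 132 for CPI, 259 and 346 for CPI + ABT-317 and 288 and 218 for isotype + ABT-317, and 2480 and 1837 macrophage-like barcodes had more than 1 hashtag and were not used. A fold change is from edgeR's quasi-likelihood test over all genes of a class, with Benjamini-Hochberg adjusted p, and a gene was called at an adjusted p under 0.05. The sums leave 4 residual degrees of freedom, to which edgeR adds prior degrees of freedom estimated over all genes. H2-DMb2 and H2-Oa were too low in these sums to be tested (0 to 4 UMIs of H2-Oa outside the isotype sums), so the counts below are of 7 genes. In such sums fewer cells of one kind within the class and less RNA per cell cannot be told apart.

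CPI went with more class II RNA in macrophage-like barcodes. H2-Aa was at 1895 and 2373 CPM under isotype and at 4390.31 and 4773 CPM under CPI, and H2-Ab1 was at 1857 and 2293 CPM under isotype and at 4337 and 5001 CPM under CPI. H2-Aa rose 2.20-fold (log2 1.14 ± 0.16, SE, adjusted p = 3.17e-05) and H2-Ab1 2.30-fold (1.20 ± 0.17, adjusted p = 2.47e-05). H2-Eb1 rose 1.94-fold (0.95 ± 0.16, adjusted p = 0.000205), from 2019 and 2469 CPM to 3982 and 4512 CPM. Cd74, the invariant chain, was at 5712 and 7834 CPM under isotype and at 11412 and 13713 CPM under CPI, and rose 1.90-fold (0.92 ± 0.18, adjusted p = 0.00125). Ciita rose 2.38-fold (1.25 ± 0.41, adjusted p = 0.0381), on 8 and 14 UMIs in the CPI sums. That call was lost in 8 alternatives, among them no filter on low counts (adjusted p = 0.0655) and leaving out the CPI sum of reaction 2 (log2 0.70, adjusted p = 0.550).

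Without the replicate block neither H2-DMa nor H2-DMb1 passed the test, and with it only H2-DMa did. H2-DMa had 297 and 328 CPM under isotype and 408 and 438 CPM under CPI (log2 0.47 ± 0.16, adjusted p = 0.0548, and 0.000927 with the reaction as a replicate block), and H2-DMb1 had 119 and 173 CPM and 140.4 and 189.98 CPM (0.21 ± 0.28, adjusted p = 0.676, and 0.373 with the block). So 5 of the 7 genes tested were higher and 0 lower, where 10.6% of all 8519 genes tested were called higher and 6.54% lower. The median of the 7 was 0.95 on the log2 scale and that of all genes -0.01. Without the CPI sum of reaction 2 the count fell to 3.

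**Figure D3:**
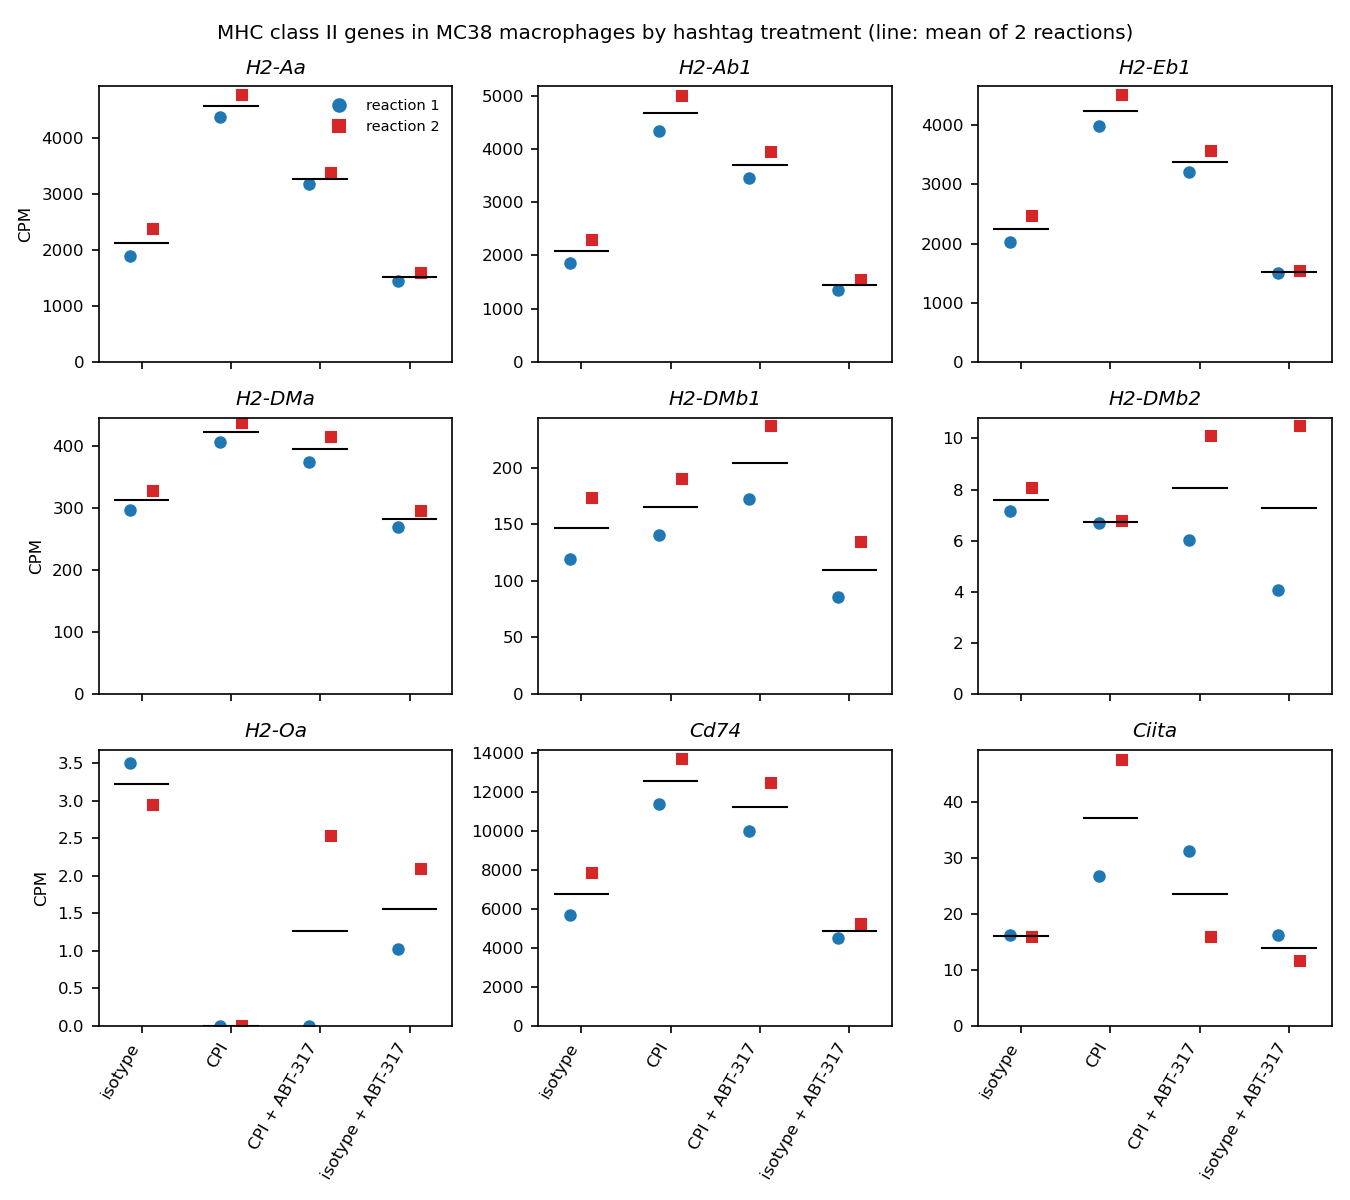
Level of each of the 9 genes in macrophage-like barcodes of MC38 tumors, in counts per 1000000 UMIs, under the 4 treatments, with a point for each of 2 reactions and a line at their mean. The classical chains and Cd74 sit highest under CPI, next under CPI + ABT-317 and lowest under isotype + ABT-317.

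Other cell markers moved with CPI in the same barcodes. The summed macrophage markers were at 13079 and 15705 CPM under isotype and 10225 and 10710.4 CPM under CPI, with all 7 markers present in all 8 sums. The cDC2 markers were at 5.87 and 6.30 CPM under isotype, 63.5 and 44.1 CPM under CPI, 2.01 and 8.21 CPM under CPI + ABT-317 and 7.13 and 15.7 CPM under isotype + ABT-317, beside 1475 and 1474 CPM in the cDC2-like class itself. Of the 5 cDC2 markers, Cd209a had no UMI in any of the 8 sums and Flt3 none in the CPI sums. The T cell markers were at 3.01 and 2.21 CPM under isotype and 26.7 and 47.5 CPM under CPI, the monocyte markers at 123 and 104 CPM and 137 and 190 CPM, the neutrophil markers at 27.8 and 19.6 CPM and 76.9 and 54.3 CPM, the cDC1 markers at 49.8 and 49.4 CPM and 43.5 and 54.3 CPM, and the mregDC markers at 25.1 and 22.2 CPM and 40.1 and 30.5 CPM. Lyz2, a lysozyme gene of myeloid cells, was at 3873 and 4576 CPM under isotype and 13566 and 18656 CPM under CPI (log2 1.97, adjusted p = 5.30e-07), and C1qa was at 3515 and 4415 CPM and 2227 and 2327 CPM (-0.77, adjusted p = 0.00567). A list of genes had been fixed to follow free RNA, and 5 of them were tested here (C1qa, Apoe, Lyz2, S100a8 and Col1a1). Of these, 3 were called higher and 1 lower. C1qa, Apoe and Lyz2 are genes of macrophages themselves, so in this class their calls do not single out RNA from other cells. S100a8, a neutrophil marker, was among the higher (log2 3.84, adjusted p = 0.00260). The median UMI count of the barcodes was 3100 and 3790 under isotype and 1608 and 1962 under CPI. The part of these in the class II result was not tested.

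ABT-317 after CPI went with a lower level of H2-Aa, by less than CPI had added. H2-Aa was at 3186 and 3379 CPM under CPI + ABT-317 and fell by 0.51 on the log2 scale against CPI (0.704-fold, SE 0.16, adjusted p = 0.0444). It was the only 1 of the 7 called lower, where 6.33% of all genes were called lower and 4.70% higher, and the median of the 7 was -0.35. H2-Ab1 (3461 and 3936 CPM, log2 -0.36, adjusted p = 0.181), H2-Eb1 (3204 and 3569 CPM, -0.35, adjusted p = 0.175) and Cd74 (10031 and 12466 CPM, -0.18, adjusted p = 0.599) did not pass the test, and H2-DMb1 had a positive log2 difference (172 and 236 CPM, 0.30, adjusted p = 0.580). With the reaction as a replicate block 4 of the 7 were called lower (H2-Aa, H2-Ab1, H2-Eb1 and Cd74), beside 9.11% of all genes in that fit. The H2-Aa call without the block was lost with no filter on low counts (adjusted p = 0.124), with under 2500 genes a barcode (0.135), with a hashtag lead of 1 natural log unit (0.304), with a gate of 2 times the level (0.0855) and by DESeq2 (0.0962). It was also lost in 6 of 8 fits that left out 1 sum, at adjusted p from 0.0681 without the isotype + ABT-317 sum of reaction 1 to 0.324 without the CPI sum of reaction 2. In the same barcodes Lyz2 was at 13566 and 18656 CPM under CPI and 5817 and 7904 CPM under CPI + ABT-317 (log2 -1.26, adjusted p = 0.000214), Apoe at 13749 and 15755 CPM and 5559 and 7799 CPM (-1.17, adjusted p = 0.000138) and C1qa at 2227 and 2327 CPM and 3329.82 and 4666 CPM (0.79, adjusted p = 0.00689). The median UMI count was 1608 and 1962 under CPI and 3488 and 4234 under CPI + ABT-317. Their part in the H2-Aa result was not tested.

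ABT-317 without CPI had the lowest levels of the classical chains and Cd74 of the 4 treatments. Under isotype + ABT-317, H2-Aa was at 1448 and 1592 CPM, H2-Ab1 at 1357 and 1533 CPM, H2-Eb1 at 1496 and 1539.99 CPM and Cd74 at 4513 and 5212 CPM. The log2 differences from isotype were -0.53, -0.56, -0.60 and -0.52, and none of the 7 genes was called (adjusted p = 0.243 for H2-Eb1, the lowest), with 4 of 7 at an unadjusted p under 0.05 and 0.0352% of all genes called lower. DESeq2 called 0 and the fit with no filter on low counts called 4 lower (the same 4), with 41 genes of all called in that fit in either direction and 9 in the fit with the filter. With the replicate block 5 of 7 were called lower (these 4 and H2-DMb1), beside 0.963% of all genes in that fit.

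Under ABT-317, CPI still went with more class II RNA. Compared with isotype + ABT-317, CPI + ABT-317 had 2.23-fold H2-Aa (log2 1.16 ± 0.16, adjusted p = 0.000192), 2.64-fold H2-Ab1 (1.40 ± 0.17, adjusted p = 4.23e-05), 2.31-fold H2-Eb1 (1.21 ± 0.16, adjusted p = 0.000120) and 2.39-fold Cd74 (1.26 ± 0.19, adjusted p = 0.000367). H2-DMb1 rose too (1.94-fold, 0.96 ± 0.25, adjusted p = 0.0446), a call lost in 9 alternatives, and H2-DMa (0.53, adjusted p = 0.101, and 6.58e-05 with the replicate block) and Ciita (0.72, adjusted p = 0.544) did not pass. So 5 of 7 were called higher beside 1.71% of all genes, with a median of 1.16. Over these 4 sums the cDC2 markers ran from 2.01 to 15.7 CPM and the T cell markers from 1.05 to 6.11 CPM. Of the 5 genes tested of the free RNA list 0 were called, with S100a8 at log2 3.29 (adjusted p = 0.430). Their part in the class II result was not tested.

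The test of whether the effect of ABT-317 differed with and without CPI called none of the 7 genes, with 0 at an unadjusted p under 0.05 and 0 by DESeq2, where 6.00% of all genes were called. The estimate was 0.02 ± 0.22 on the log2 scale for H2-Aa and 0.75 ± 0.37 for H2-DMb1, which a positive sign puts as relatively higher under the combination. With the replicate block 2 of 7 were called, H2-DMb1 (0.72, adjusted p = 0.00901) and Cd74 (0.31, adjusted p = 0.0115), beside 12.6% of all genes in that fit.

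Within the macrophage-like class the levels spread widely from barcode to barcode under each treatment. The summed UMIs of the classical chains per 10000 UMIs had a median of 20.5 and 28.8 under isotype, 92.2 and 126 under CPI, 57.7 and 59.6 under CPI + ABT-317 and 10.3 and 8.94 under isotype + ABT-317. The share of barcodes without a UMI of these chains was 12.6% and 13.1%, 5.19% and 4.55%, 11.6% and 11.0%, and 20.8% and 22.0% in the same order, at unequal depths. At 500 UMIs a barcode, the share with a UMI was 60.2% and 62.1% under isotype, 84.6% and 88.3% under CPI, 70.3% and 70.0% under CPI + ABT-317 and 50.0% and 48.1% under isotype + ABT-317, which keeps the order at matched depth. The 10th percentile was above 0 under CPI in both reactions (7.86 and 12.1) and 0 under each other treatment. The 90th percentiles were 176 and 237 under isotype, 237 and 267 under CPI, 241 and 283 under CPI + ABT-317 and 152 and 148 under isotype + ABT-317.

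**Figure D4:**
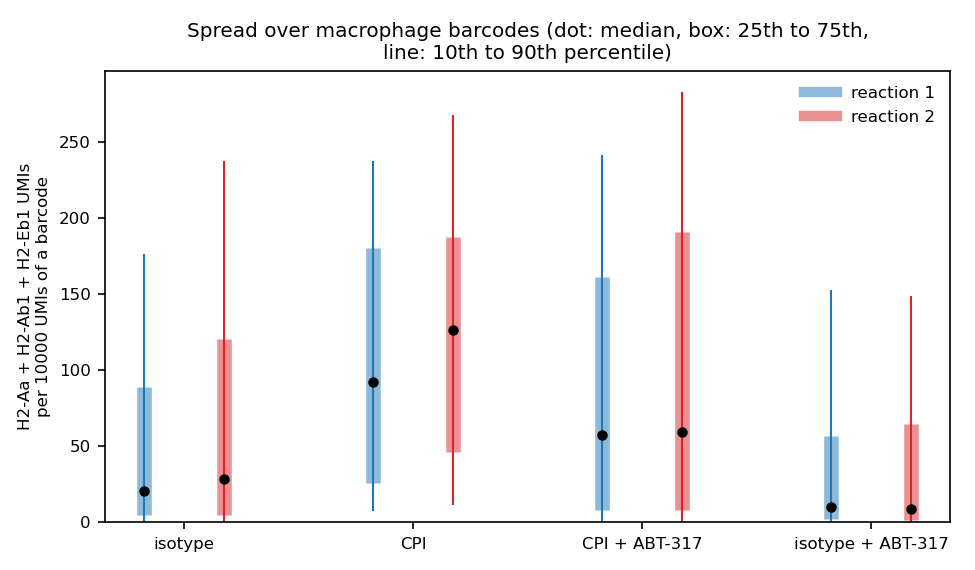
UMIs of H2-Aa, H2-Ab1 and H2-Eb1 together per 10000 UMIs in single macrophage-like barcodes of MC38 tumors, by treatment and reaction, with the median as a dot, the 25th to 75th percentile as a box and the 10th to 90th as a line. The lower end of the range is above 0 only under CPI, and the upper ends of isotype, CPI and CPI + ABT-317 overlap.

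Surface class II protein, which was counted apart from the RNA in the same barcodes, rose under CPI and was near the isotype level under CPI + ABT-317. The I-A/I-E antibody over the isotype controls stood at 4.27 and 4.95 in macrophage-like barcodes under isotype, 12.2 and 12.1 under CPI, 3.94 and 4.49 under CPI + ABT-317 and 3.38 and 3.81 under isotype + ABT-317. The antibody rose 2.63-fold with CPI (log2 1.40 ± 0.09, adjusted p = 0.000168, edgeR over 122 antibodies, 10.7% called higher) and fell by 1.50 with ABT-317 after CPI (0.353-fold, SE 0.09, adjusted p = 0.000170, 9.02% called lower). The isotype controls themselves differed by -0.08 to 0.12 on the log2 scale in these tests.

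RNA and surface protein parted under CPI + ABT-317. Against CPI, surface I-A/I-E was at 0.353-fold while H2-Aa RNA was at 0.704-fold and Cd74 RNA at 0.880-fold. Against isotype + ABT-317, H2-Aa RNA was 2.23-fold while surface I-A/I-E was 1.18-fold and was not called (log2 0.24 ± 0.09, adjusted p = 0.231, 4.10% of antibodies called higher), although the replicate block called it (adjusted p = 0.0307). ABT-317 alone gave -0.34 (adjusted p = 0.216, 1.64% called lower, and adjusted p = 0.0156 with the block). The effect of ABT-317 on surface I-A/I-E differed with and without CPI, with an interaction of -1.16 ± 0.12 on the log2 scale (adjusted p = 0.00197, 18.9% of antibodies called in either direction), whereas that of H2-Aa RNA was 0.02 ± 0.22. The difference between the RNA and the protein effects was not itself tested.

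**Figure D5:**
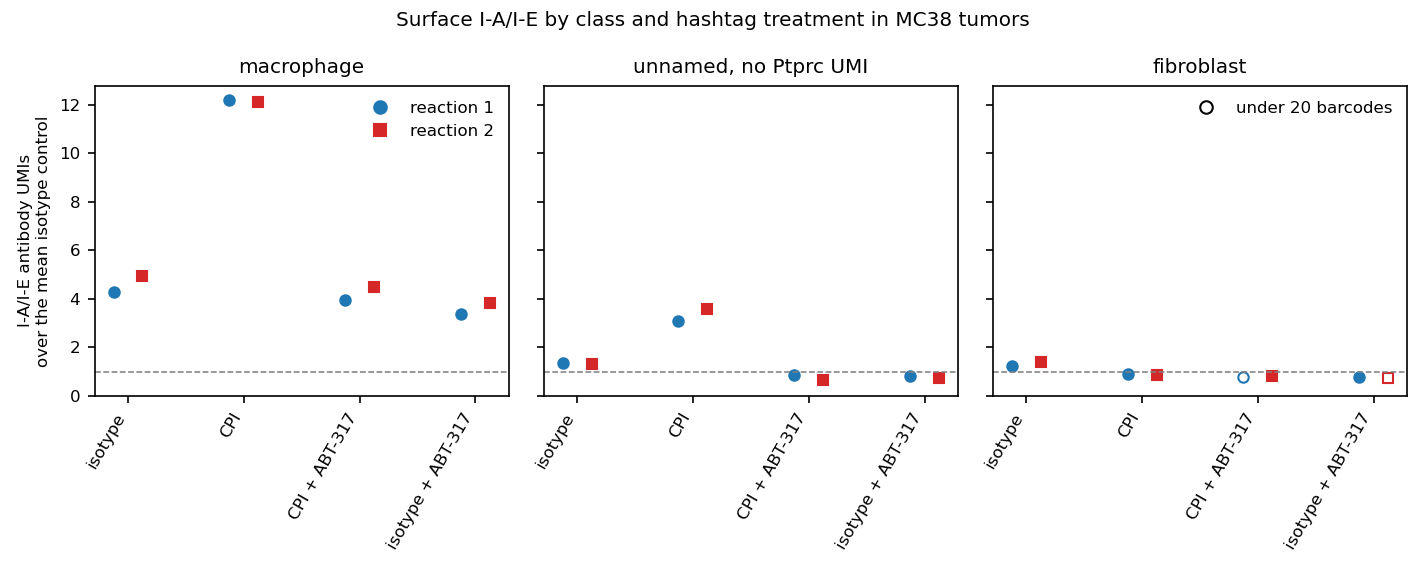
UMIs of the I-A/I-E antibody over the mean of 9 isotype control antibodies in macrophage-like, unnamed and fibroblast-like barcodes of MC38 tumors, by treatment, with a point for each of 2 reactions, a dashed line at 1 (the isotype controls) and open symbols for sums of under 20 barcodes. In macrophage-like barcodes the CPI points are at 12.2 and 12.1, and in fibroblast-like barcodes all points lie between 0.723 and 1.41.

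The unnamed class, which passed no marker gate and has no Ptprc UMI, showed the same genes at far lower levels. H2-Aa was at 52.1 and 31.6 CPM under isotype, 178 and 218 CPM under CPI, 13.5 and 14.0 CPM under CPI + ABT-317 and 14.0 and 5.41 CPM under isotype + ABT-317. With CPI 5 of the 9 genes were called higher (11.3% of 16109 genes), among them H2-Aa (3.77-fold, log2 1.91 ± 0.37, adjusted p = 0.00809) and Cd74 (3.40-fold, 1.77 ± 0.34, adjusted p = 0.00723), the other 3 being H2-Ab1, H2-Eb1 and H2-DMa, and the median of the 9 was 1.60 against -0.05 for all genes. With ABT-317 after CPI 7 of 9 were called lower (11.9% of all genes), all but H2-DMb1 and H2-DMb2, where H2-Aa fell by 3.47 on the log2 scale (SE 0.40, adjusted p = 0.000553) and Cd74 by 3.14 (SE 0.35, adjusted p = 0.000504). The calls of H2-Oa (adjusted p = 0.0441) and Ciita (adjusted p = 0.0319) rest on 2 and 1 UMIs and on 3 and 3 UMIs in the CPI sums. In the 8 fits that left out 1 sum H2-Oa was not called in any and Ciita was not called in 4, and those fits called 5 or 6 genes. H2-DMb1 was at 13.7 and 15.9 CPM under isotype, 23.7 and 17.6 CPM under CPI and 10.1 and 15.9 CPM under CPI + ABT-317, and passed neither test (adjusted p = 0.798 and 0.588).

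In the same sums Lyz2 was at 101 and 53.0 CPM under isotype, 492 and 607 CPM under CPI and 29.2 and 45.6 CPM under CPI + ABT-317 (log2 2.52 and -3.50), and Col1a1, a fibroblast collagen, had log2 differences of 3.02 and -3.96. Of the 6 genes of the free RNA list, which for this class are markers of RNA from other cells, 4 were called higher with CPI and 5 lower with ABT-317 after CPI. C1qa was not called with CPI (log2 0.43, adjusted p = 0.498) and was at -1.65 with ABT-317 after CPI (adjusted p = 0.0223). The T cell markers were at 1.47 and 0.666 CPM under isotype and 46.2 and 33.7 CPM under CPI, and the macrophage markers at 254 and 141 CPM and 336 and 376 CPM. The unnamed barcodes had a median of 12524 and 20174 UMIs under isotype, 1317 and 2175 under CPI and 19340 and 25202 under CPI + ABT-317, so the CPI sums come from much shallower barcodes. With under 2500 genes a barcode, 0 of the 9 genes were called higher with CPI, and without the CPI sum of reaction 2 also 0. The part of depth and of free RNA in these values was not tested.

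ABT-317 alone called 0 of the 9 in the unnamed class (7 at an unadjusted p under 0.05, 0.00621% of all genes called lower). DESeq2 called 5, beside 203 of all genes in either direction, and the replicate block called 7 (8.46% of all genes in that fit). In this comparison the markers of other cells were at log2 -1.86 for C1qa, -2.10 for Apoe, -1.71 for Lyz2 and -2.10 for S100a8, with 0 of 6 called and 4 at an unadjusted p under 0.05, and their part in the class II values was not tested. CPI + ABT-317 against isotype + ABT-317 called 0 (1 at an unadjusted p under 0.05, 0.106% of all genes called higher, 0 by DESeq2). The interaction called 0 (2 at an unadjusted p under 0.05, 4.49% of all genes, 0 by DESeq2), and the block called 2, H2-Aa and H2-Ab1 (25.5% of all genes in that fit). Surface I-A/I-E in this class stood at 1.34 and 1.29 times the isotype controls under isotype, 3.07 and 3.59 under CPI, 0.838 and 0.654 under CPI + ABT-317 and 0.816 and 0.717 under isotype + ABT-317. Its log2 differences were 1.32 for CPI (adjusted p = 0.000420, 13.1% of antibodies called higher), -2.03 for ABT-317 after CPI (adjusted p = 5.67e-05, 16.4% lower), -0.77 for ABT-317 alone (adjusted p = 0.00928, 3.28% lower), 0.06 for CPI under ABT-317 (adjusted p = 0.997, 0% higher) and -1.26 ± 0.14 for the interaction (adjusted p = 0.00434, 13.9% in either direction). With under 2500 genes a barcode the values were 0.51 for CPI (adjusted p = 0.159), -0.98 for ABT-317 alone (adjusted p = 0.0532) and -0.64 for the interaction (adjusted p = 0.327), which no longer passed, and -1.61 for ABT-317 after CPI (adjusted p = 0.00308), which did. A single isotype control differed by up to 0.89 in the same tests of this class.

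Fibroblast-like and T cell-like sums were too small in some treatments to be tested. T cell-like barcodes with a single hashtag numbered 14 and 13 under isotype, 295 and 295 under CPI and 7 under CPI + ABT-317 in reaction 2, with no others. Macrophage-like barcodes had the opposite imbalance between isotype and CPI. The part of hashtag calling in these counts was not tested. In fibroblast-like barcodes (66 and 43 under isotype, 824 and 656 under CPI, 16 and 30 under CPI + ABT-317 and 28 and 13 under isotype + ABT-317) Cd74 was at 186 and 47.2 CPM under isotype, 178 and 118 CPM under CPI, 27.7 and 231 CPM under CPI + ABT-317 and 96.8 and 23.9 CPM under isotype + ABT-317. These ranges overlap, and the order of the 4 treatments was not the same in both reactions. Surface I-A/I-E in that class was 1.22 and 1.41 times the isotype controls under isotype, 0.886 and 0.862 under CPI, 0.793 and 0.825 under CPI + ABT-317 and 0.756 and 0.723 under isotype + ABT-317.

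The rest of the class II pathway in macrophage-like barcodes was measured from a list of 15 other genes, of which 10 passed the filter on low counts. With CPI the cathepsins Ctss (log2 0.74 ± 0.16, adjusted p = 0.00257), which trims the invariant chain, and Ctsl (0.68 ± 0.17, adjusted p = 0.00591) rose, and the other 8 did not pass, Ifi30, Lgmn, Cd83 and March1 among them, so that the median was -0.16. The 2 of 10 called higher stand beside 10.6% of all genes. With ABT-317 after CPI 0 of the 10 passed (2 at an unadjusted p under 0.05), beside 4.70% of all genes called higher and 6.33% lower. With CPI under ABT-317 only Ctsl did (0.67, adjusted p = 0.0303), beside 1.71% of all genes. Rfxap, Nfya, Nfyb and Nfyc, subunits of the factors that bind the X and Y boxes, did not pass in the CPI comparison (adjusted p = 0.117 to 0.800).

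Of 8 genes of the class I pathway, given for comparison, 2 were called higher and 2 lower with CPI, beside 10.6% and 6.54% of all genes. The heavy chains H2-K1 (log2 0.63, adjusted p = 0.00623) and H2-D1 (0.70, adjusted p = 0.00390) rose and the immunoproteasome subunits Psmb8 (-0.87, adjusted p = 0.00350) and Psmb9 (-0.61, adjusted p = 0.0494) fell, and B2m, Tap1, Tap2 and Nlrc5 did not pass (adjusted p = 0.172 to 0.929). With ABT-317 after CPI, 3 of the 8 rose, beside 4.70% of all genes. These were Psmb8 (1.11, adjusted p = 0.000823), Psmb9 (1.16, adjusted p = 0.000859) and the peptide transporter subunit Tap1 (1.38, adjusted p = 0.00317).

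The genes whose levels over 34 sums of class and reaction in the tumors were most like the classical chains, by Pearson's r of log2(CPM + 1) over 8820 genes, were Wdfy4 (0.81, itself a marker of the cDC1 gate), Ifi30 (0.81), Lcp1 (0.77), Ctss (0.77) and Itgb2 (0.77). For Ciita they were Pmaip1 (0.90), Htr7 (0.89), Shtn1 (0.83), Phf11b (0.83) and Ppfibp2 (0.81). Among the other genes followed here, Cd74 was closest to the sum of the classical chains (0.95) and H2-DMb1 farthest (0.51). The sums share libraries and differ widely in depth, and all count alike. Those of the plasma cell-like and plasmacytoid dendritic cell-like classes hold 1 barcode in each reaction. The values are a description of these sums.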

How the data were processed

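The authors deposited raw UMI counts per gene or antibody and barcode for 3 TDLN and 2 MC38 tumor reactions. The file headers name Cell Ranger 7.1.0 (TDLN) and 8.0.1 (MC38 tumor), the submitters' processing notes Cell Ranger 3.1.0 with GRCm38 and mm10, and how barcodes were kept is not given in the sources used here. Gene totals were 127052825, 105259770 and 18055617 UMIs for TDLN and 435031691 and 377184807 for the tumors. Barcodes with at least 200 genes and under 10% mitochondrial UMIs were kept (62571, 56509, 7050, 33762 and 23332), and the upper limit of 2500 genes in the study's methods was an alternative.

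Tumor classes needed a summed marker level of 8 to 150 per 10000 UMIs (macrophage 40) and 2 or 3 distinct markers. TDLN B cell and T cell classes needed a likelihood ratio of 10000 against the pool. Its model had the class's own markers at 2 (B cell) or 1.5 (T cell) times the pool and the other class's markers at 0.1 times. A hashtag was present at a posterior of 0.5 in a mixture of 2 normal components on log counts. The hashtags of CPI separated least, with component means of 2.93 and 4.01 natural log units in reaction 1 and 2.41 and 3.63 in reaction 2. The isotype hashtag was called present in 26608 of 37774 and 16731 of 27582 barcodes, against 9116 to 14183 and 5092 to 8476 for each other hashtag. The part of background in these calls was not tested.

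UMIs were summed per class, treatment and reaction where all sums held 20 or more barcodes. They were tested with edgeR 4.0.16 (filterByExpr, TMM, glmQLFit) in R 4.3.3 and, as an alternative, DESeq2 1.42.0. Antibody UMIs were tested the same way over 122 antibodies without hashtags. Same-numbered sums come from 1 10x reaction and so pair. The main tests did not use this pairing, and the fits with the replicate block did. The reaction differences of 2 treatments correlated across genes at 0.0839 to 0.384 in macrophage-like and 0.0688 to 0.565 in unnamed sums. The p-values measure only the spread between these sums, estimated with information shared over genes, and this spread may be technical. The tests were checked on simulated counts. Levels and plots used Python 3.11.15, numpy 2.4.6, pandas 2.3.3, scipy 1.17.1 and matplotlib 3.10.9. Intervals are exact Poisson at 95% and cover counting error only.

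The 9 genes, the marker and pathway lists, and the tests were chosen with earlier results of these data known. Named are the 9 genes, at most 4 genes with the lowest p of each list, and the 5 genes most like each pattern (mean of 10 CPM or more), and any others were named after their values were seen. Alternatives were no filter on low counts, no TMM factors, a replicate block, the limit of 2500 genes, a hashtag lead of 1 natural log unit, a gate of 2 times the level, means over barcodes, DESeq2 and leaving out each sum. Chosen after seeing the data were the replicate block and leave-one-out fits of the antibody and all alternatives of the interaction. The results of a list of IFN-γ pathway genes are not reported here.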

Additional observations from a re-analysis of the deposited data

Results flagged for a closer look

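The effect of ABT-317 on surface I-A/I-E differed with and without CPI in both classes tested. In macrophage-like barcodes the interaction was -1.16 on the log2 scale (adjusted p = 0.00197, edgeR over 122 antibodies), with I-A/I-E over the isotype controls at 12.2 and 12.1 under CPI, 3.94 and 4.49 under CPI + ABT-317, 4.27 and 4.95 under isotype and 3.38 and 3.81 under isotype + ABT-317. In the unnamed class it was -1.26 (adjusted p = 0.00434), and -0.64 (adjusted p = 0.327) in barcodes with under 2500 genes. The macrophage-like value stayed between -1.26 and -1.07 in the fits without 1 sum and was -1.21 (adjusted p = 0.00232) with under 2500 genes a barcode. The barcodes of the 2 classes come from the same 8 combinations of treatment and reaction and are not independent of each other. In the RNA of the same sums the interaction was also called for Lyz2 (-1.61, adjusted p = 0.00115) and Apoe (-0.85, adjusted p = 0.0437) in macrophage-like barcodes, out of 5 genes tested of the free RNA list. Both are genes of macrophages themselves. In the unnamed class it was called for Col1a1 (-2.96, adjusted p = 0.0379), out of 6 such genes. The part of these genes in the I-A/I-E values was not tested.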

How the results depend on the processing

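Calls over all genes, in either direction, are given beside those of the 9 genes. In macrophage-like barcodes, where the main fit tested 7 of the 9, those called higher with CPI numbered 5, and 3 with a hashtag lead of 1 natural log unit (all genes 1459 and 753). Those called lower with ABT-317 after CPI numbered 1 (939). They numbered 0 with no filter on low counts, with under 2500 genes, with the hashtag lead, with the stricter gate and by DESeq2 (1002, 816, 533, 701 and 860), and 4 with the replicate block (1430). Those called lower with ABT-317 alone numbered 0, and 4 with no filter and 5 with the replicate block (9, 41 and 169). The interaction called 0, and 1 with no filter and 2 with the replicate block (511, 585 and 1073). In fits without 1 sum the counts ran from 3 to 5 (3 without CPI replicate 2), 0 to 1, 0 to 0, 4 to 5 for CPI under ABT-317, and 0 to 1. In the unnamed class, those called higher with CPI numbered 5, and 0 with under 2500 genes and 1 with the hashtag lead (all genes 3126, 1275 and 1127). With ABT-317 alone they numbered 0, and 6 with no filter, 7 with the replicate block, 5 with under 2500 genes and 5 by DESeq2 (1, 447, 3026, 178 and 203). The interaction called 0, and 2 with no filter and 2 with the replicate block (724, 1379 and 4103). Without 1 sum these ran from 0 (without CPI replicate 2) to 5, 5 to 6, 0 to 6 (6 without isotype replicate 2, 4 without isotype + ABT-317 replicate 1), 0 to 0 and 0 to 3.

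For I-A/I-E in macrophage-like barcodes the replicate block kept -0.34 for ABT-317 alone and 0.24 for CPI under ABT-317 and passed both. In the unnamed class, under 2500 genes gave 0.51 for CPI, -0.98 for ABT-317 alone, -0.13 for CPI under ABT-317 and -0.64 for the interaction, and the ratio to the isotype controls gave -2.16 for ABT-317 after CPI and -0.047 for CPI under ABT-317. Without 1 sum the macrophage-like values ran from 1.30 to 1.49 (CPI), -1.59 to -1.43 (ABT-317 after CPI), -0.43 to -0.25 (ABT-317 alone), 0.16 to 0.32 (CPI under ABT-317) and -1.26 to -1.07 (interaction), and the unnamed values from 1.23 to 1.41, -2.12 to -1.94, -0.87 to -0.66 (adjusted p = 0.0534 without isotype + ABT-317 replicate 2), -0.038 to 0.17 and -1.36 to -1.15. The replicate block ended no call.

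The summed level of the 9 genes in macrophage-like barcodes was 12407 CPM, 15347 with under 2500 genes, 15174 with the stricter gate and 11116 to 13697 without 1 reaction. In TDLN B cell-like barcodes it was 31637 CPM, 35052 as a mean over barcodes and 29537 to 33737 without 1 reaction. Over all genes, macrophage-like calls numbered 1459 for CPI (753 with the hashtag lead), 939 for ABT-317 after CPI (1430 with the replicate block, 533 with the lead), 9 for ABT-317 alone (169 with the block, 41 with no filter, 5 without TMM, 2 with under 2500 genes, 1 with the lead, 15 by DESeq2), 179 for CPI under ABT-317 (538 with the block, 67 with the lead) and 511 for the interaction (1073 and 200). In unnamed sums they numbered 3126 for CPI (5683 with the block, 1275 with under 2500 genes, 1127 with the lead), 3310 for ABT-317 after CPI (5745, 1321 and 605), 1 for ABT-317 alone (3026, 178 and 0, 447 with no filter, 203 by DESeq2), 22 for CPI under ABT-317 (2595 with the block, 163 with no filter, 14 without TMM, 170 by DESeq2) and 724 for the interaction (4103 with the block, 249 with under 2500 genes, 101 with the lead, 1379 with no filter, 1389 by DESeq2). The cause was not tested. No result turned direction, apart from values near 0. The stricter gate was not run for the unnamed class. Depth limits the macrophage-like CPI sums, which hold 299068 and 294761 UMIs.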
